A study of Mus musculus with 6 samples.

Results

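The laminins and matrix glycoproteins analysed here are 44 genes, taken from the deposited expression table by gene symbol, of 22375 rows in all. All 44 symbols were found. The libraries came from C2C12 cells, an immortalized line of mouse myoblasts that divides in serum and can fuse into myotubes. The CON group held 3 libraries of cells that were not stretched, and the 4H group held 3 libraries of cells stretched cyclically at 15% elongation for 4 h on elastic plates coated with poly-lysine. The labels name no genetic change and no agent in either group, and both come from 1 cell line grown without other cell types. The labels number the libraries as replicate biosamples and do not say whether each came from a separate culture, so p-values measure the spread between these libraries, which may be technical. Values are FPKM, fragment counts scaled to transcript length and library size, so that levels of different genes can be set side by side.

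Laminins are cross-shaped trimers of 1 α, 1 β and 1 γ chain, and they form the first sheet of every basement membrane, including the one that wraps each muscle fibre. Nidogens, perlecan and agrin tie that sheet to collagen IV and to receptors on the cell. Around it lie fibronectin and the matricellular proteins, such as thrombospondins, tenascins and osteopontin, which adjust adhesion more than they bear load, and the fibulins, fibrillins and elastin, which build elastic fibres. In muscle the chief laminin receptors are integrin α7β1 and dystroglycan, whose sugar chain binds the α chains.

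Summed over the 44 genes, the level was 2176.4, 2206.7 and 2226.3 FPKM in the CON libraries and 3107.0, 3123.3 and 3201.7 FPKM in the 4H libraries, which is 0.549% to 0.56% and 0.806% to 0.827% of all FPKM in a library. The largest single part of this net difference, 53.1%, came from Spp1, which encodes osteopontin, followed by Thbs1 with 14.6% and Nid1 with 12.1%. The genes did not move as one. Tenascin-C, thrombospondin-1, nephronectin and the laminin β3 chain rose, fibulin-5 fell, and the main laminin α and γ chains, perlecan and fibrillin-1 did not pass the test. In bulk libraries such as these, fewer cells of a kind and less RNA in each cell cannot be told apart.

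Of the 44 genes, 28 averaged 0.5 FPKM or more across the 6 libraries and were tested, among 11593 genes in all, with limma on log2(FPKM + 0.5) and Benjamini-Hochberg adjustment over all genes. The fold changes below are on this scale, which understates the change of genes with low values. With the study's thresholds, a log2 fold change of 1 or more in either direction together with an adjusted p no higher than 0.05, 5 of the 28 were differentially expressed, where 3.88% of all genes tested were. Of these, 4 were higher in the 4H group, against 2.61% of all genes, and 1 was lower, against 1.28%. At the adjusted p alone, 19 of the 28 differed, where 46.7% of all genes did. They divided into 14 that rose, where 22.6% of all genes rose, and 5 that fell, where 24.1% of all genes fell. In 22 of the 28 the 3 CON values and the 3 4H values did not overlap, as in 56.7% of all genes. The median log2 fold change of the 28 was 0.13 and that of all genes tested was -0.01, while the median absolute log2 fold change was 0.30 and 0.188. Replicates were close, with a median coefficient of variation within groups of 4.22% for the 28 genes and 5.67% for all genes.

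**Figure D1:**
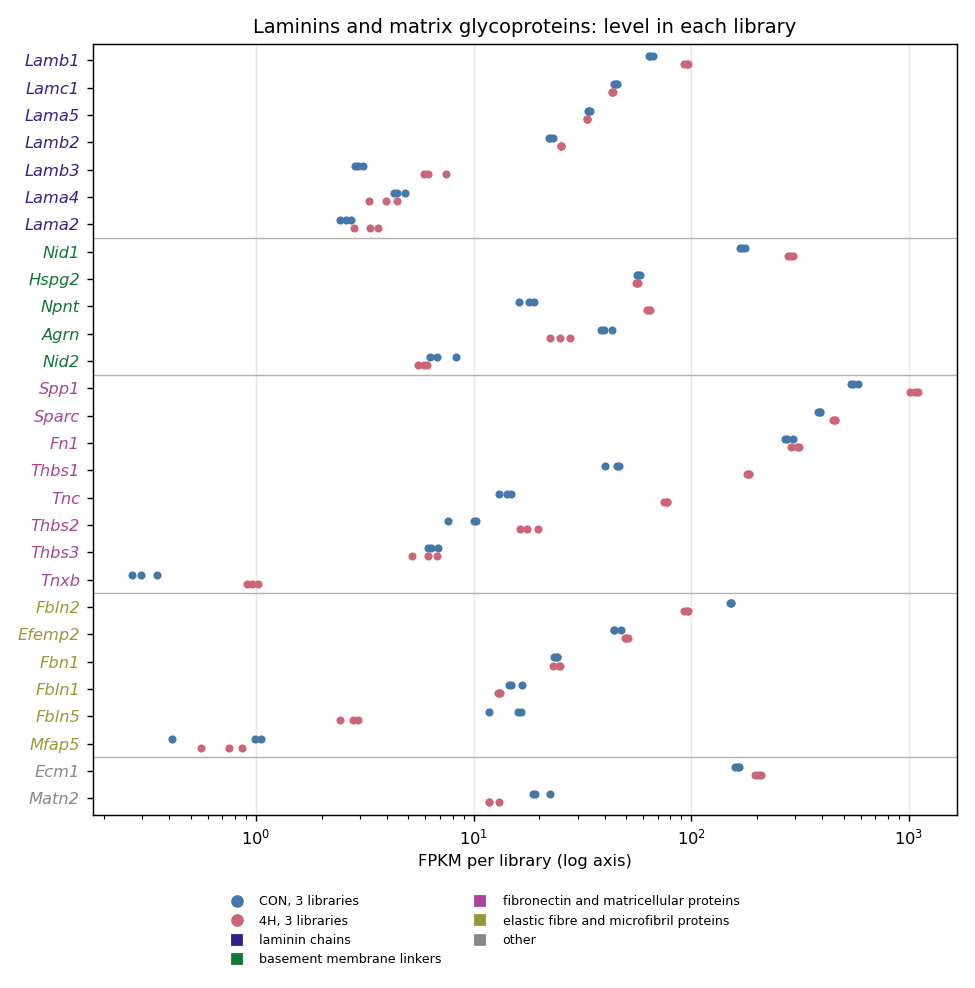
Level of each of the 28 tested genes in every library, as FPKM on a log axis, grouped by role, with 3 CON points and 3 4H points per gene. Tnc, Thbs1, Npnt and Fbln5 have the widest gaps between the groups, and Spp1 is highest, at 542 to 584.4 FPKM in CON and 1012.9 to 1100.6 FPKM in 4H.

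Promoter sequence is shown for the differentially expressed genes that have an entry in the RefSeq table of promoters, because these genes moved past both thresholds together. The table gives 300 bases per start site on the mouse build GRCm38.p6, 250 before the start and 50 after it, and 29 of the 44 genes have 40 such windows in it. Where a gene had several windows, the one with the most motif matches was taken, and the first of equals. The bases run 5′ to 3′ along the gene's strand, and capitals mark matches to the 5 motifs searched, an AP-1 site (TGANTCA), a TEAD site (GGAATG), the CArG box of serum response factor, a TATA box (TATAAA, gene strand only) and a GC box (GGGCGG). The others were searched on both strands, so that CATTCC and CCGCCC are the TEAD and GC boxes read on the other strand.
Tnc: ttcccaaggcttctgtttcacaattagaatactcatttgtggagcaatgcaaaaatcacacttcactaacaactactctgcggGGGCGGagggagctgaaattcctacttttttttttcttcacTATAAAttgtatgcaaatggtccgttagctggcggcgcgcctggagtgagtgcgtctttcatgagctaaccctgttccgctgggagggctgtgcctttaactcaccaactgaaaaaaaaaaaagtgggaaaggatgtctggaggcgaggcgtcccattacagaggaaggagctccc
Npnt: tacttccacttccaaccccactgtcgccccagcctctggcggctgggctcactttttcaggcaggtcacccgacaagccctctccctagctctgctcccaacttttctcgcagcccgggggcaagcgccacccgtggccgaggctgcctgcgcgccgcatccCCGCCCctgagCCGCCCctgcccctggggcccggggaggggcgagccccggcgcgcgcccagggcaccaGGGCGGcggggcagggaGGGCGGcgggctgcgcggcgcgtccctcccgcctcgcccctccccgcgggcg
Lamb3: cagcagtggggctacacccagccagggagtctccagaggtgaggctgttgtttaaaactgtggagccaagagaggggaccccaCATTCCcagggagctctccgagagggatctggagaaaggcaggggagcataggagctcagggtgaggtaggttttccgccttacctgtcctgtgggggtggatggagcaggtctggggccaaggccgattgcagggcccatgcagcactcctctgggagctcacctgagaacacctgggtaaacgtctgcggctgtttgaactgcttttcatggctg
Fbln5: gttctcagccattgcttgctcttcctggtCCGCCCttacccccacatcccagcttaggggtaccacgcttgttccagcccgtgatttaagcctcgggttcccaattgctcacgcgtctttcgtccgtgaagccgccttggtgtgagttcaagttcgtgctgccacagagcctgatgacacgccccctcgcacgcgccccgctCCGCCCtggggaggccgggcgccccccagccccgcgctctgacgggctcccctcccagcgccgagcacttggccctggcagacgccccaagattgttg

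The Tnc window lies at chr4:64046966-64047265 on the minus strand and holds a GC box at -167 and a TATA box at -126 from the start site. Another Tnc window, at chr4:64046887-64047186 for a different start site, holds the same matches at -246 and -205. For Npnt, the window at chr3:132950242-132950541 on the minus strand holds 4 GC boxes, at -88, -77, -19 and -2. The Lamb3 window, at chr1:193301993-193302292 on the plus strand, holds 1 TEAD match at -167. In Fbln5, the only one of the 4 genes that fell, the window at chr12:101819070-101819369 on the minus strand holds GC boxes at -221 and -48. None of the 4 windows printed holds an AP-1 or CArG match. Over the 40 windows of the 29 genes, the AP-1 motif was in 3 (7.5%), in the genes Ecm1, Efemp1 and Tnxb, against 7.81% of all 32851 windows of the table. The TEAD motif was in 6 (15%) against 14.7%, and the CArG box in 1 (2.5%), that of Lama2, against 1.63%. TATA boxes were in 6 (15%) against 8.32%, in the genes Ecm1, Postn, Spp1, Tnc and Vtn, and GC boxes in 23 (57.5%) against 35.7%. These are matches of letters in short windows, and no binding of any factor was measured.

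Among the laminin chains, 7 of 10 were tested, 3 rose, where 22.6% of all genes did, none fell, where 24.1% did, and 4 did not pass the test. The most abundant was Lamb1 (chr12:31265234-31329644, plus strand, mm10), the β1 chain of the laminins of embryonic and many adult basement membranes. Its level was 64.5, 66.5 and 64.2 FPKM in the CON libraries and 95.4, 92.1 and 96.2 FPKM in the 4H libraries. Each stretched library was thus above each control library, with a log2 fold change of 0.54 (SE 0.032, limma, adjusted p = 5.11e-06). Lamb2, the β2 chain concentrated at the neuromuscular junction and in kidney, rose less, from 22.6 ± 0.51 to 25.3 ± 0.0808 FPKM (mean ± SD, n = 3), a log2 fold change of 0.16 (SE 0.038, limma, adjusted p = 0.00966).

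Lamb3 (chr1:193207699-193343878, plus strand), a β chain of epithelial basement membranes, had the largest log2 fold change of the tested chains, at a low level. It stood at 3.10, 2.95 and 2.84 FPKM in CON and at 5.92, 6.15 and 7.46 FPKM in 4H. The groups were well apart, although the third 4H library was above the other two by more than 1 FPKM. The log2 fold change was 1.01 (SE 0.097, limma, adjusted p = 7.7e-05), just inside the fold threshold, and it was 0.99 without CON replicate 3 and 0.92 without 4H replicate 3, so that the call was lost while the adjusted p kept its side. Lama3, an α chain of epithelial basement membranes, stood at 0.0386, 0.0833 and 0.0838 FPKM in CON and at 0.194, 0.201 and 0.142 FPKM in 4H. It was below the filter and was not tested, but its groups did not overlap. Epithelial markers were near 0, with Epcam at 0 in all libraries and a summed level of Epcam, Cdh1, Krt8 and Krt18 of 0.0401 to 0.117 FPKM in CON and 0.319 to 0.553 FPKM in 4H. Their part in the Lamb3 result was not tested.

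The α chains, which carry the receptor-binding end of the trimer, did not pass the test. Lama5, the α5 chain of most adult basement membranes, was the main one, at 33.8 FPKM in CON and 33.3 FPKM in 4H (log2 fold change -0.02, limma, adjusted p = 0.647). Lama4, the α4 chain of vessels and developing muscle, went from 4.53 to 3.89 FPKM (-0.20, limma, adjusted p = 0.152). Lama2, the α2 chain of mature muscle fibres whose loss causes a congenital muscular dystrophy, went from 2.58 to 3.27 FPKM (0.28, limma, adjusted p = 0.0562). This last value passed without 4H replicate 2 (0.37, limma, adjusted p = 0.0234). Lama1 was at or below 0.00571 FPKM in every library. The only abundant γ chain, Lamc1, the γ1 chain shared by most laminins, went from 44.7 to 43.5 FPKM (-0.04, limma, adjusted p = 0.34). Lamc3 was not tested, and its 3 CON values of 0.0192 to 0.0477 FPKM lay below its 3 4H values of 0.097 to 0.155 FPKM.

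Set side by side per length, the chains differed between the groups mainly on the β side. The summed β chains of the 44 genes went from 90.6 ± 0.801 to 126.3 ± 2.8 FPKM, while the α chains were at 40.9 ± 0.0508 and 40.6 ± 0.727 FPKM and the γ chains of the 44 genes at 44.7 ± 0.68 and 43.6 ± 0.119 FPKM. The ratio of Lamb1 to Lamc1 was 1.47, 1.47 and 1.43 in CON and 2.19, 2.12 and 2.22 in 4H. Within the α chains Lama5 held 82.4% ± 0.94 of the FPKM in CON and 81.9% ± 1.6 in 4H, a difference smaller than the spread, while the share of Lama2 was 5.95% to 6.67% in CON and 7.01% to 8.74% in 4H and that of Lama3 0.0943% to 0.205% and 0.353% to 0.5%, both without overlap. Within the β chains the share of Lamb1 went from 71.8% ± 0.744 to 74.9% ± 0.456, that of Lamb2 from 24.9% ± 0.752 to 20.0% ± 0.385 and that of Lamb3 from 3.27% ± 0.149 to 5.15% ± 0.57, with no overlap between the groups in any of the 3. These shares were described and not tested.

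**Figure D2:**
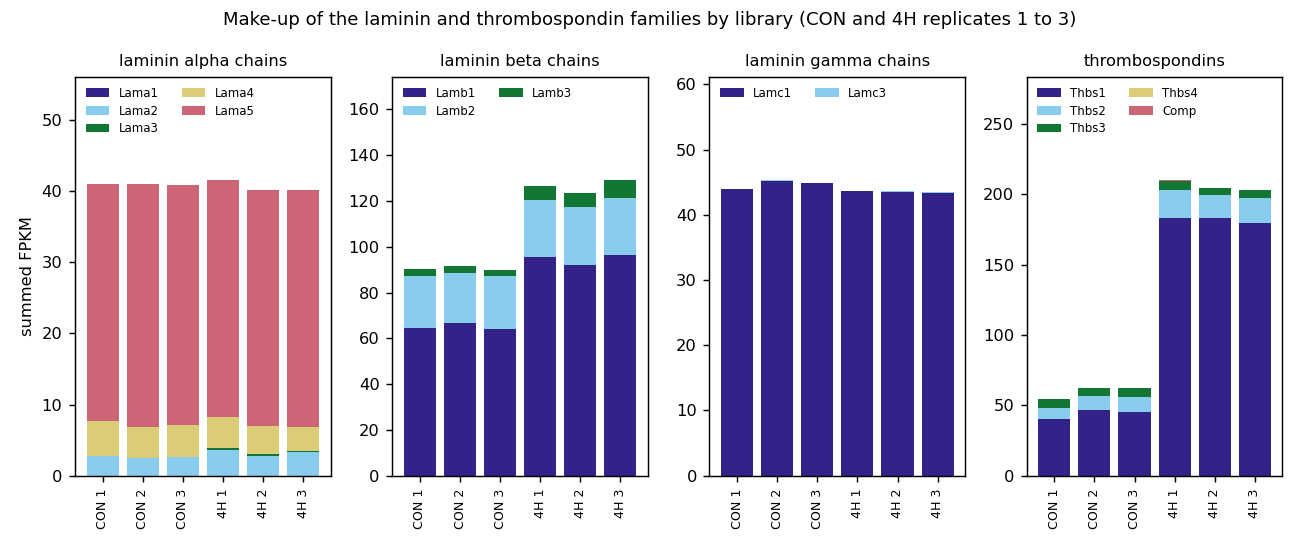
Summed FPKM of the laminin α, β and γ chains and of the thrombospondins in each of the 6 libraries, stacked by gene, each panel with its own axis from 0. The β chains and the thrombospondins are higher in every 4H library, at 123.4 to 129.0 and 203.3 to 209.7 FPKM, while the α and γ stacks stay near 40.9 and 44.7 FPKM.

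All 5 proteins that link the laminin sheet to its surroundings were tested, of which 2 rose, 1 fell and 2 did not pass, where 22.6% of all genes rose and 24.1% fell. Nid1 (chr13:13437551-13512269, plus strand), nidogen-1, bridges laminin γ1 to collagen IV. It was the most abundant of them, at 175.7, 167 and 169.9 FPKM in CON and 293, 276.9 and 284.1 FPKM in 4H. The lowest stretched library was more than 100 FPKM above the highest control library, with a log2 fold change of 0.73 (SE 0.032, limma, adjusted p = 1.05e-06). Its relative Nid2 did not follow, going from 7.11 to 5.87 FPKM (-0.25, limma, adjusted p = 0.077), and the value was -0.14 without CON replicate 2 (limma, adjusted p = 0.205), while without CON replicate 1 the fall passed the test (limma, adjusted p = 0.0384). The ratio of Nid1 to its binding partner Lamc1 went from 3.83 ± 0.16 to 6.55 ± 0.17.

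Npnt (chr3:132881745-132950291, minus strand) encodes nephronectin, a basement membrane ligand of integrin α8β1. Its level was 16.2, 19 and 17.9 FPKM in the CON libraries and 64, 62.3 and 64.4 FPKM in the 4H libraries. The values within each group were tight and the groups far apart, with a log2 fold change of 1.82 (SE 0.058, limma, adjusted p = 2.09e-07). Agrn, agrin, which clusters acetylcholine receptors at the neuromuscular junction and binds dystroglycan, moved the other way. It stood at 38.6, 43.4 and 39.5 FPKM in CON and at 27.8, 24.8 and 22.4 FPKM in 4H, so that every stretched library was lower, with a log2 fold change of -0.69 (SE 0.079, limma, adjusted p = 0.000208). Hspg2, perlecan, a large heparan sulfate proteoglycan, was at 57.1 and 56.2 FPKM (-0.02, limma, adjusted p = 0.61).

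Of fibronectin and the matricellular proteins, 7 of 8 tested genes rose, where 22.6% of all genes did, none fell, where 24.1% did, and 1 did not pass. Their median log2 fold change was 0.89, where that of all genes tested was -0.01. The classes were not tested against each other. The class holds 14 genes, and their summed level went from 1299 ± 20.56 to 2097 ± 45.99 FPKM. One of the 7, Tnxb, passed the filter only through its 4H values, so its difference is in part set by the filter. Its fold change is also a middle value that sets the median. Another of the 7, Fn1, lost its call in 7 of 15 alternatives.

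Tnc (chr4:63959785-64047015, minus strand) encodes tenascin-C, an anti-adhesive protein made at myotendinous junctions and in wounds, and it had the largest log2 fold change of the 28 genes tested. Its level was 13, 14.2 and 14.8 FPKM in the CON libraries and 77.2, 74.7 and 77.1 FPKM in the 4H libraries. The CON values differed from each other by less than 2 FPKM and the gap between the groups was over 50 FPKM. The log2 fold change was 2.41 (SE 0.051, limma, adjusted p = 6.02e-08). Of its relatives, Tnn, tenascin-W, was at 0 in all libraries. Tnxb, tenascin-X, which stiffens collagen, was at 0.351, 0.269 and 0.295 FPKM in CON and at 0.905, 1.02 and 0.955 FPKM in 4H, a log2 fold change of 0.86 (SE 0.130, limma, adjusted p = 0.000941).

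Thbs1 (chr2:118111876-118127133, plus strand) encodes thrombospondin-1, which can activate latent TGF-β and binds CD47. It rose from 40.3, 46.5 and 45.4 FPKM to 183.1, 183 and 179.6 FPKM. The 4H libraries differed from each other by less than 4 FPKM and all lay above 3 times the highest CON library, with a log2 fold change of 2.04 (SE 0.052, limma, adjusted p = 8.18e-08). Part of its exons overlaps Gm29233 on the other strand, as exons of Tnc overlap 8030451A03Rik. The library kit marked the strand, but whether the counting used it is not given in the sources used here.

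The other thrombospondins are separate genes with their own levels. Thbs2, an inhibitor of vessel growth, rose from 7.59, 9.98 and 10.2 FPKM to 19.7, 16.4 and 17.6 FPKM (log2 fold change 0.92, SE 0.115, limma, adjusted p = 0.000334), with no overlap between the groups. Thbs3 went from 6.46 to 6.03 FPKM (-0.10, limma, adjusted p = 0.444). Thbs4, the thrombospondin of tendon and muscle, was at 0 in every library, and Comp, the fifth of the family, was above 0 in 1 CON and 1 4H library, at 0.0452 and 0.238 FPKM. Thbs1 made up 73.7% ± 0.53 of the family's FPKM in CON and 88.4% ± 1.08 in 4H. The share of Thbs2 went down, from 15.4% ± 1.39 to 8.67% ± 0.688, although its own level rose.

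Spp1 (chr5:104435118-104441050, plus strand) encodes osteopontin, a secreted phosphoprotein with an RGD site for αv integrins that is also a ligand of CD44. It was the most abundant of the 44 in both groups, at 551.1, 542 and 584.4 FPKM in CON and 1012.9, 1062.2 and 1100.6 FPKM in 4H. No stretched library came near a control, and the log2 fold change of 0.92 (SE 0.040, limma, adjusted p = 9.98e-07) fell just short of the fold threshold. An exon of Gm42793 overlaps it on the same strand, so that fragments there could be split between them. Osteopontin is also made by macrophages, and the markers of that cell type moved too. The summed level of the 4 markers was 6.73 to 8.51 FPKM in CON and 16.5 to 18.5 FPKM in 4H. Cd68 (log2 fold change 1.07, limma, adjusted p = 4.11e-05) and Csf1r (1.61, limma, adjusted p = 0.000231) passed both thresholds, Csf1r at 0.00906 and 1.08 FPKM only through its 4H values, while Ptprc and Adgre1 were at 0 in all 6 libraries. Their part in the Spp1 result was not tested.

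Sparc, a collagen-binding protein also called osteonectin, was second in level and rose from 387.2 ± 4.8 to 453.1 ± 6.7 FPKM (log2 fold change 0.23, SE 0.024, limma, adjusted p = 0.00015). Fn1, fibronectin, the main ligand of integrin α5β1, was at 268.7, 291.8 and 274 FPKM in CON and at 310.6, 287.9 and 306.3 FPKM in 4H. Its groups overlapped, since the second 4H library lay below the second CON library, and the log2 fold change was 0.12 (SE 0.041, limma, adjusted p = 0.0481). That call was lost without CON replicate 1 (limma, adjusted p = 0.145), CON replicate 3 (0.129), 4H replicate 1 (0.131) or 4H replicate 3 (0.126). The rest of the class was not tested. Postn, periostin, was at 0.0806 to 0.184 FPKM in CON and 0.16 to 0.342 FPKM in 4H, Tgfbi reached 0.0953 FPKM in 1 library, and Sparcl1 reached 0.0636 FPKM.

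**Figure D3:**
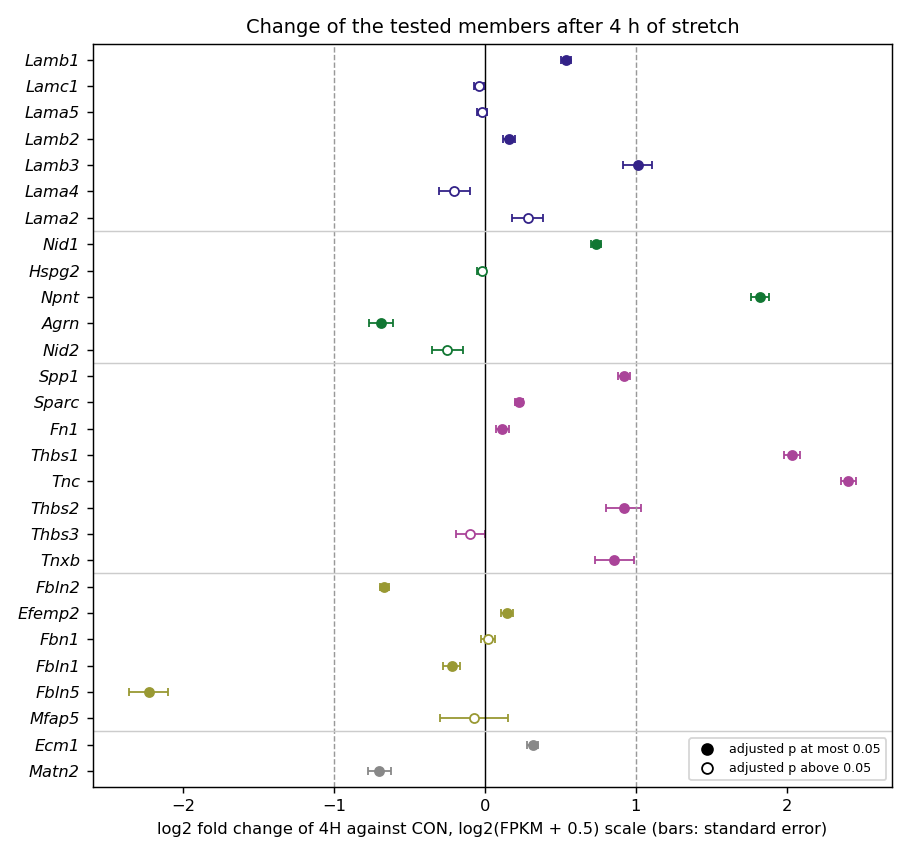
Log2 fold change of 4H against CON for the 28 tested genes, with bars of 1 standard error from limma, in the role order laminin chains, basement membrane linkers, fibronectin and matricellular proteins, elastic fibre and microfibril proteins, and other. Filled points have an adjusted p of at most 0.05 and dashed lines mark the fold threshold, which Tnc, Thbs1, Npnt, Lamb3 and Fbln5 passed.

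Of the 12 elastic fibre and microfibril genes 6 were tested, 1 rose, where 22.6% of all genes did, 3 fell, where 24.1% did, and 2 did not pass, and their summed level went from 252 ± 4.63 to 186.5 ± 1.763 FPKM. Fbln5 (chr12:101746565-101819055, minus strand) encodes fibulin-5, which guides elastin onto microfibrils, and it had the largest fall of the 28 genes tested. Its level was 11.7, 15.9 and 16.5 FPKM in the CON libraries and 2.93, 2.43 and 2.78 FPKM in the 4H libraries. The CON group was spread more widely than for most of the genes, but its lowest value was still over 3 times the highest 4H value, and the log2 fold change was -2.23 (SE 0.130, limma, adjusted p = 4.67e-06).

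The most abundant of the class was Fbln2 (chr6:91212455-91272540, plus strand), fibulin-2, which binds laminin, nidogen and fibronectin. It fell from 152.7, 149.9 and 151.6 FPKM to 92.8, 95.9 and 96.9 FPKM, with both groups tight and apart (log2 fold change -0.67, SE 0.029, limma, adjusted p = 9.52e-07). Fbln1 fell from 15.4 to 13.1 FPKM (-0.22, limma, adjusted p = 0.0159). The ratio of Fbln2 to Fbln5 went from 10.6 ± 2.2 to 35.3 ± 3.9, so the fibulins fell by unequal amounts. Efemp2, also called fibulin-4, which elastic fibres need and which recruits lysyl oxidase, rose from 45.3 to 50.2 FPKM (0.15, limma, adjusted p = 0.0144).

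The microfibril scaffold itself differed by less. Fbn1, fibrillin-1, was at 23.9 and 24.2 FPKM (0.02, limma, adjusted p = 0.728), and Mfap5, a small microfibril glycoprotein, at 0.817 and 0.725 FPKM (-0.07, limma, adjusted p = 0.814). Elastin itself, Eln, was at 0 in all 6 libraries, as was Mfap4. Fbn2, Mfap2 and Efemp1 were not tested and reached 0.0045, 0.1 and 0.15 FPKM in their highest library. Emilin1, an elastin microfibril protein, was not tested either, and its CON values of 0.319, 0.623 and 0.456 FPKM lay above its 4H values of 0.307, 0.222 and 0.292 FPKM.

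The 3 remaining genes belong to no class. Ecm1, extracellular matrix protein 1, which binds perlecan and fibulins, was the most abundant and rose from 164.3, 158.2 and 165.6 FPKM to 195.4, 203.3 and 209.5 FPKM. The groups did not overlap, with a log2 fold change of 0.32 (SE 0.034, limma, adjusted p = 0.00015). Matn2, matrilin-2, a filament-forming adaptor of basement membranes, fell from 18.8, 22.5 and 19.2 FPKM to 11.8, 13 and 11.8 FPKM, again without overlap (-0.70, SE 0.076, limma, adjusted p = 0.000154). Vtn, vitronectin, a plasma protein made mainly in liver, was at 0 in every library.

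**Figure D4:**
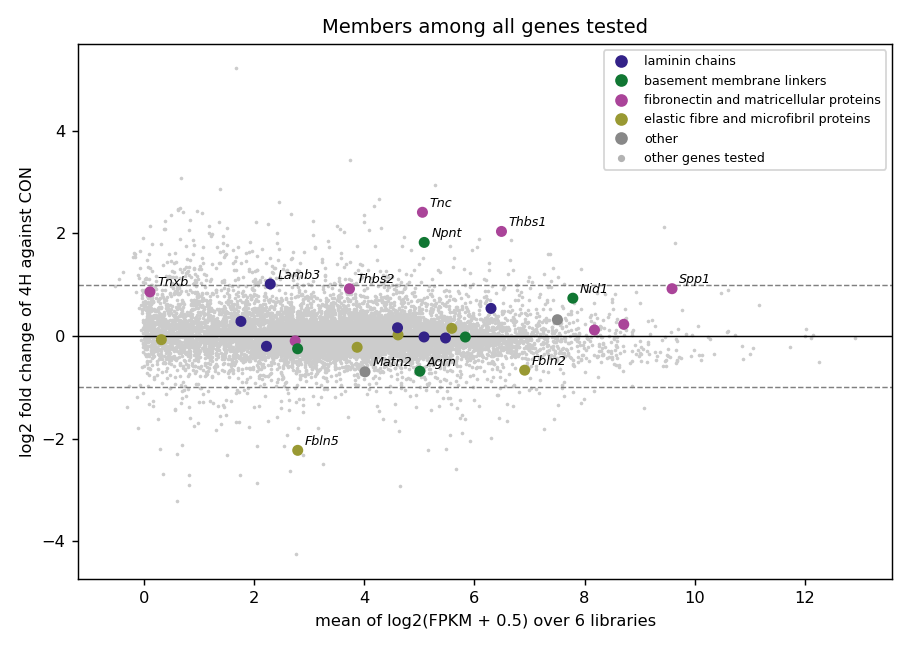
Log2 fold change of 4H against CON against the mean of log2(FPKM + 0.5) over the 6 libraries for all 11593 genes tested, in grey, with the 28 genes in colour by role and dashed lines at the fold threshold. Tnc, Thbs1 and Npnt lie among the higher fold changes at their level and Fbln5 among the lower.

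The receptors of these proteins were listed for comparison as 26 genes, of which 18 were tested, 13 rose, where 22.6% of all genes did, 2 fell, where 24.1% did, and 3 did not pass. Past both thresholds, as were 2.61% of all genes in the higher direction, were Itgb3, the partner of αv in the osteopontin and fibronectin receptor, Itgb6 and Cd44. Itgb6, at 0.123 ± 0.0641 and 0.915 ± 0.168 FPKM, passed the filter only through its 4H values, so its difference is in part set by the filter. Itgb3 rose from 2.29 ± 0.149 to 13.9 ± 0.375 FPKM (log2 fold change 2.38, SE 0.069, limma, adjusted p = 1.37e-07). Cd44, which binds hyaluronan and osteopontin, rose from 101.3 ± 2.75 to 234.3 ± 8.86 FPKM (1.21, SE 0.036, limma, adjusted p = 1.66e-07). The falls were those of Itgb5 (-0.60, limma, adjusted p = 0.000114) and Lrp1 (-0.14, limma, adjusted p = 0.00454). Of the chief laminin receptors of muscle, Itga7 rose from 55.9 ± 2.02 to 102.2 ± 4.06 FPKM (0.87, SE 0.041, limma, adjusted p = 1.62e-06). Its partner Itgb1 rose from 209.3 ± 4.94 to 258.6 ± 4.2 FPKM (0.30, SE 0.028, limma, adjusted p = 6.24e-05). Dystroglycan, Dag1, was at 45.6 and 43.9 FPKM (-0.05, limma, adjusted p = 0.28).

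Of the enzymes that build the laminin-binding sugar of dystroglycan, 13 of 16 listed symbols were found and 12 were tested. In this list 1 rose, Pomgnt1 (0.24, limma, adjusted p = 0.00746), 1 fell, B3galnt2 (-0.42, limma, adjusted p = 0.00351), and 10 did not pass, where 22.6% of all genes rose and 24.1% fell. Among 37 further matrix glycoproteins, 19 were tested, 9 rose, against 22.6% of all genes, 5 fell, a share near the 24.1% of all genes, and 5 did not pass, and 1 of the rises, Vwa1, passed the filter only through its 4H values. Edil3, a secreted integrin ligand, was among the rises (0.91, limma, adjusted p = 9.13e-05), and the largest falls were those of Ltbp4, a latent TGF-β binding protein of microfibrils (-0.69, limma, adjusted p = 3.07e-05), and Slit2 (-0.63, limma, adjusted p = 0.000698). The medians of the 3 lists were 0.58, -0.10 and 0.20, where that of all genes tested was -0.01.

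Relative depth of the libraries, estimated on genes with values below 0.1 FPKM, was within 1.73% in all 15 pairs, and no pair was identical. The estimate looked only for small differences in depth, so a larger one could not have been returned. Pearson's r of log2 values was 0.9969 to 0.9976 within groups and 0.9899 to 0.9907 between them. It was taken over all 22375 rows, of which 5799 were at 0 in every library. FPKM summed to 395790 to 397260 in CON and 385146 to 387516 in 4H, and 14125 to 14186 rows were above 0 in the CON libraries against 14899 to 14972 in the 4H libraries. The part of this in the values of low genes such as Lama3, Lamc3 and Tnxb was not tested. The label of the cells was checked on markers, of which 7 of 8 for myoblasts had a mean of at least 0.5 FPKM, with Pax7 below. The lineage factors moved in opposite directions, Myod1 from 5.13 to 18.2 FPKM (log2 fold change 1.74, limma, adjusted p = 1.56e-06) and Myf5 from 15.8 to 9.82 FPKM (-0.67, limma, adjusted p = 0.000347). The summed level of the myoblast markers was 211 to 215 FPKM in CON and 292 to 304 FPKM in 4H. Of 7 genes of differentiating muscle only Mymk reached that level, and their sums were 0.729 to 1.11 and 1.25 to 1.81 FPKM. Below the filter, Tnnt3 went up from 0.0779 to 0.401 FPKM and Myog down from 0.217 to 0.0265 FPKM, both without overlap. The groups overlapped for Myh3 and Ckm, and Mymx and Actc1 were at 0 in all libraries. Of the 6 fibroblast markers Thy1 and Lum were at 0 in all CON libraries and at or below 0.121 FPKM in 4H, and the sum, mostly Col1a2, was 131 to 136 and 104 to 108 FPKM. Against that sum, Pdgfra rose from 3.15 to 5.08 FPKM (0.61, limma, adjusted p = 0.000753), and Dcn was at 0.876 and 1.40 FPKM (limma, adjusted p = 0.15). Endothelial markers summed to 0.101 to 0.122 and 0.254 to 0.387 FPKM. The part of these shifts in the results for the 44 genes was not tested.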

How the data were processed

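Total RNA of C2C12 cells was selected for poly(A), made into strand-marked paired-end libraries and sequenced by the authors, who deposited 1 table of FPKM values with 1 column per library. The submitters' processing notes name the build mm10, while the aligner, counting tool and annotation were not given in the sources used here. All columns were matched to samples by title, and groups and replicate numbers came from the labels, where 4H replicates 1, 2 and 3 carry the titles 4H1, 4H3 and 4H4. Because FPKM is normalized, the count model named in the study's methods could not be used. Genes averaging 0.5 FPKM or more were tested two-sided on log2(FPKM + 0.5) with limma (version 3.58.1, under R 4.3.3, functions lmFit and eBayes, the latter with its variance trend), with no replicate block and with Benjamini-Hochberg adjustment over all genes tested. The thresholds were those of the study, a log2 fold change of 1 or more in either direction together with an adjusted p no higher than 0.05. The deposited FPKM values give no absolute depth, so counting error is unknown and precision rests on 3 libraries a group. The fit was tested on simulated data.

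The genes, their roles and the comparison lists were chosen with earlier results of these data known, so their counts and medians are descriptions. Full values are given for genes past both thresholds and, in each role, for the most abundant gene and the one with the largest change. Agrn, Thbs2, Fn1, Tnxb, Lama3 and Emilin1 were also given per library after their values were seen, Itga7, Itgb1, Dag1, Itgb6 and Vwa1 were named after theirs were, as were the levels of other genes below the filter. The values of 1 gene of the comparison lists are not reported here. Coordinates are those of GENCODE M21 on GRCm38, the same build as mm10, and promoters those of RefSeq on GRCm38.p6. Python 3.11.15 with pandas 2.3.3, numpy 2.4.6 and matplotlib 3.10.9 was used for tables and plots. The alternatives were pseudocounts of 0.1 and 1, no filter, a filter at 1 FPKM, a replicate block, no variance trend, rescaling to TPM, quantile normalization, median-of-ratios scaling, leaving out each library and the fold threshold on the ratio of mean FPKM.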

Additional observations from a re-analysis of the deposited data

How the results depend on the processing

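Tnc, Thbs1, Npnt and Fbln5 passed both thresholds in all 15 alternatives that refit the genes, and over these no direction of a called gene reversed. Lamb3 passed the fold threshold in 11 of 15, and its log2 fold change was 0.92 with a pseudocount of 1 and 0.97 with quantile normalization, while Spp1 passed with quantile normalization (1.02) and Tnxb with a pseudocount of 0.1 (1.39) and with TPM (1.23). The number of the 28 genes past both thresholds was 4 to 6, and the number past the adjusted p was 18 to 20. With no filter, where 39 genes could be fitted, their median log2 fold change was 0.041, since the added genes lie near 0. With values rescaled to TPM under the same filter and pseudocount, 12457 genes in place of 11593 were tested and 703 in place of 450 passed both thresholds. Leaving out 1 library gave 4 to 5 of the 28 past both thresholds, 18 to 20 past the adjusted p, a median of 0.112 to 0.142 and 449 to 467 genes in all. Of the single fold changes, 25 of 28 kept their side of the adjusted p in each alternative, and the exceptions were Fn1, Lama2 and Nid2. Besides the libraries named above, Fn1 lost its call with no filter (limma, adjusted p = 0.0875), the replicate block (0.103) and no trend (0.124), and Lama2 gained one with no trend (0.0413) and TPM (0.0427). Each scaling moved the median of all genes by less than 0.1. The labels do not say whether the replicate numbers pair the libraries. Same-numbered CON and 4H libraries correlated in their deviations from the group means at 0.025, -0.093 and -0.126. Deviations within a group are tied to each other, so these values cannot show whether the libraries were paired. The titles of the 4H libraries number them otherwise, and CON replicate 3 with 4H replicate 2, titled 4H3, gave 0.176, the highest of the 9 pairs. With the number as a replicate block, 5 of the 28 passed both thresholds, 18 the adjusted p, and 452 genes both thresholds. The cause of these changes was not tested. Absolute depth cannot be read from FPKM, so how far low genes such as Lama3 and Tnxb are limited by counting is not known.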
